A study of Mus musculus with 12 samples.

Results

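The genes described here drive chromosomes through mitosis: the cyclins and kinases that start it, the kinetochores and motors that move chromosomes, the passenger complex, the cytokinesis machinery and the condensins. A list of 53 such genes was set by symbol, with earlier results of these data known. A gene was followed on the row of the array table that named only that gene. Of several such rows, the row of the highest mean level over 12 arrays was taken. This gave 52 genes of 19937 with a row of their own. All 52 also passed the filter on low values, among 17807 genes that did. No row named only Ccnb1, the gene of cyclin B1, so it has no value here. Transcripts were measured on GeneChip Mouse Gene 1.0 ST arrays in bone marrow from mouse hind legs, after magnetic depletion of cells bearing the markers NK1.1, CD2, B220, CD11b, GR1 and Ter119. The groups were 6 arrays of E4bp4-/- mice (knockout) and 6 of E4bp4+/+ mice (wild type), untreated as far as the labels say. E4bp4, also called Nfil3, is a basic leucine zipper transcription factor required for natural killer cell development. The strain, age and sex of the mice, and the part of the gene that was deleted, are not given in the sources used here.

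Mitosis is switched on when cyclin A and cyclin B activate the kinase Cdk1, and ends when the anaphase-promoting complex destroys cyclin B and frees separase to cut the cohesin that holds sister chromatids. Most of these genes are transcribed in a pulse late in the cell cycle. Their promoters often carry a CHR, the cell cycle genes homology region bound by the MuvB core of the DREAM complex (a repressor in resting cells) and of B-Myb and FoxM1 complexes (activators in dividing cells). Boxes bound by the factor NF-Y usually lie next to the CHR. In bone marrow the rapidly dividing cells are erythroid, myeloid and lymphoid progenitors, while most long-term stem cells rest.

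The sequences below are 120 bases directly before the start of 7 of these genes, from RefSeq, build GRCm38.p6, written 5′ to 3′ along the gene. They were chosen to show the CHR near the start that most of the list shares, in 3 kinesin genes whose genotypes did not overlap and in 3 other genes, beside Nusap1, which has no match. An NF-Y box stands with the CHR in Kif22, Kif11, Cdk1 and Top2a, and not in Kif15 or Ncapg2. Capitals mark a CHR (TTTGAA or TTCGAA, or TTCAAA on the other strand), an NF-Y box (CCAAT, or ATTGG on the other strand) or an E2F site.
Kif22 (chr7:127042421-127042540, - strand): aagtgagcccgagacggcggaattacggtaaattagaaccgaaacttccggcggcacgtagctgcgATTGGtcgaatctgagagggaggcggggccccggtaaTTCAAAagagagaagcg
Kif11 (chr19:37376262-37376381, + strand): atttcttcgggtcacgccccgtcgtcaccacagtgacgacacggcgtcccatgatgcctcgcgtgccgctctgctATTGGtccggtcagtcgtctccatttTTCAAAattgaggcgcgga
Kif15 (chr9:122950961-122951080, + strand): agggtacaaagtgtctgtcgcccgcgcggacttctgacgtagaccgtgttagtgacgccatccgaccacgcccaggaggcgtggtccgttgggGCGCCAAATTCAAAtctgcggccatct
Cdk1 (chr10:69352913-69353032, - strand): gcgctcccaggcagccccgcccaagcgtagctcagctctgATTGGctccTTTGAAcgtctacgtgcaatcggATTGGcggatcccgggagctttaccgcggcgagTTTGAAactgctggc
Top2a (chr11:99024190-99024309, - strand): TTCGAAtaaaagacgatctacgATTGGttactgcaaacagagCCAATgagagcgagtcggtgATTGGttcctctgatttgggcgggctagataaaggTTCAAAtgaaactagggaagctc
Ncapg2 (chr12:116405316-116405435, + strand): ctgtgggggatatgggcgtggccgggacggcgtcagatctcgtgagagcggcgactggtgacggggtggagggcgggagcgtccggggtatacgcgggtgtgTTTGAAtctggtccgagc
Nusap1 (chr2:119618178-119618297, + strand): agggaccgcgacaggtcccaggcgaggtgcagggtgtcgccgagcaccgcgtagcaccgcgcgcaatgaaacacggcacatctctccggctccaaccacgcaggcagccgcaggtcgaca

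In Kif22 the CHR began 17 bases before the start and the NF-Y box 54 bases before it. In Kif11 they began 19 and 45 bases before it. Kif15 had its CHR 19 bases before the start, directly next to an E2F site at 27 bases, with no NF-Y box in the printed stretch. Cdk1 held a CHR at 15 bases and another at 71, with NF-Y boxes at 48 and 80 bases. Top2a held NF-Y boxes at 58, 78 and 98 bases and CHR matches at 23 and 120 bases, and Ncapg2 a single CHR at 18 bases. A match is a run of letters and was not tested for binding.

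RefSeq promoters, from 250 bases before to 50 after the start, were found for 44 of the 53 genes, 48 promoters in all. A CHR on either strand was present in 36 of 48 (75%), against 19.2% of 32851 promoters of mouse genes. An NF-Y box was present in 35 of 48 (72.9%), against 37.4%, and both together in 30 of 48 (62.5%), against 7.52%. An E2F site, searched as TTTCGCGC, TTTCCCGC or TTTGGCGC on both strands, was present in 5 of 48 (10.4%), against 1.84%. These motifs can overlap or lie side by side, as in Kif15. The CHR matches lay close to the start: 32 of the 48 promoters (66.7%) had one beginning between 40 bases before and 44 after it, a window set after the positions were seen, against 4.74% of all promoters. DNA replication genes, a list of 27 S phase genes with 26 promoters, had the other layout, with a CHR in 23.1% and an E2F site in 42.3%. The site that Nfil3 binds was searched on both strands as TTACGTAA, a palindrome, or TTATGTAA. It was in 0 of the 48 windows and in 1.06% of all promoters, which says only that these letters are not there.

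**Figure D1:**
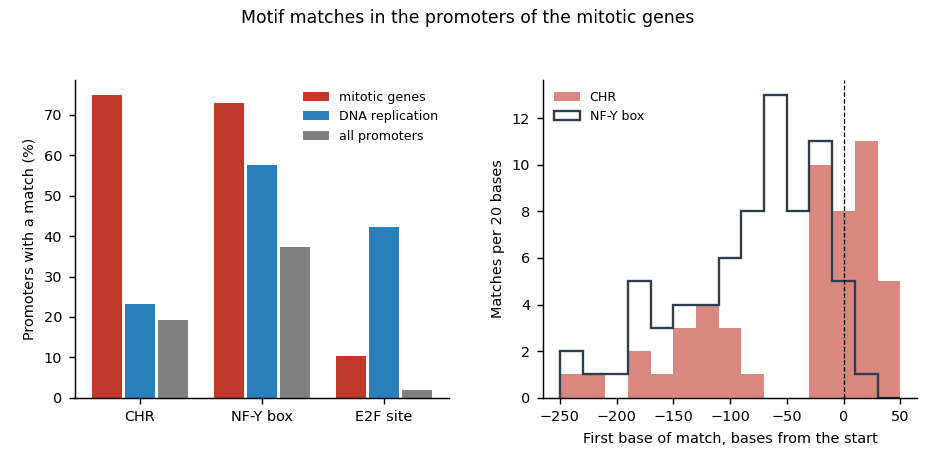
The left panel shows the percentage of promoters with a match for the mitotic genes (48 promoters), DNA replication genes (26) and all genes (32851). The right panel counts CHR and NF-Y matches of the mitotic genes per 20 bases by the distance of their first base from the start, with CHR matches gathered around the start and NF-Y boxes before it.

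Array medians ran from 6.5 to 6.62 log2 and correlations between arrays from 0.986 to 0.9955, and having 6 arrays per genotype limits precision. The design text gives 6 mice per genotype, and p-values measure the spread between these 12 samples. Nfil3 was lower in every knockout array (6.34 to 6.92) than in every wild type array (6.94 to 7.67), a check of the labels. The nearest arrays were knockout replicate 2, at 6.924, and wild type replicate 5, at 6.944. Knockout replicate 1 stood apart. Its Xist level was 6.08 against at least 12.1 on the other arrays, and its Y-linked Uty was 7.70 against at most 4.66. This is the pattern of a male sample, where the other arrays had that of female samples. On knockout replicate 1 the 12 neutrophil markers averaged 8.84, against at most 7.30 in the wild type. The totals for the mitotic genes, and the counts of roles and lists that move most, are also given without it. Among markers of the labelled fraction, 8 stem and early progenitor genes averaged 9.06 to 9.50, and 8 T and natural killer cell genes 5.16 to 5.27. Erythroid markers averaged 11.3 to 11.87 although Ter119-positive cells had been depleted.

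The question is whether transcripts of mitosis differed between marrow with and without E4bp4. Most of them were slightly lower in the knockout: 50 of 52, with a median difference, knockout minus wild type, of -0.114 log2, where all 17807 genes had a median of 0.020 and 41.2% were lower. The differences ran from -0.28 log2 (Cenpk, 1.22-fold lower) to 0.0082 (Aurkb). No gene of the list passed a Benjamini-Hochberg adjusted p of 0.05 in limma over 29541 transcript clusters, of which 0 (0%) passed. The targeted gene, Nfil3, did not pass either, with a limma adjusted p of 0.14. At an unadjusted p under 0.05, 30 of 52 were lower and 0 higher, against 5.72% of all genes lower and 9.47% higher. Because the list was chosen with earlier results of these data known, its counts beside all genes are a description. Among the brighter genes, those reaching the 50th percentile on at least 1 array, the shares were 8.14% and 8.09%, with 48.8% below 0. These background shares rested on the scaling: of all genes at that p, 37.6% were lower with the deposited values, 48.4% once arrays were quantile normalised and 78.2% once array medians were set equal. Quantile normalisation gave 21 of the 52 genes lower at that p and 0 higher, against 5.6% and 5.97% of all genes. Equal array medians gave 41 lower and 0 higher, against 12.4% and 3.46%. The counts below 0 were 49 and 52 of 52, against 44.9% and 58.6% of all genes. In bulk RNA, fewer dividing cells and less mitotic RNA per dividing cell cannot be told apart.

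**Figure D2:**
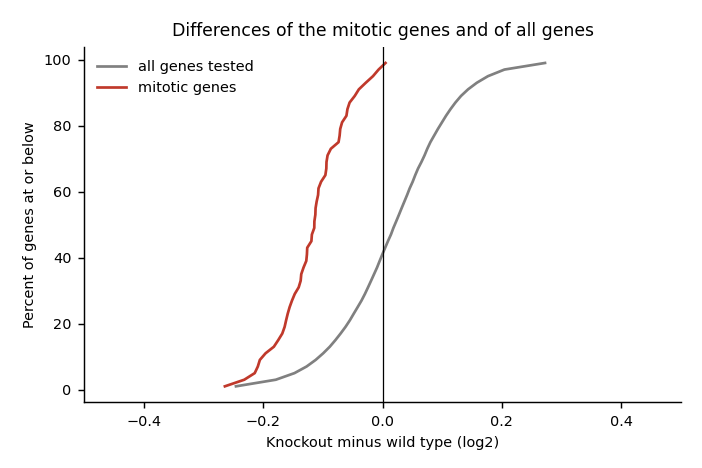
Percent of genes (y axis) with a knockout minus wild type difference at or below the value on the x axis (log2), for the 52 mitotic genes and all 17807 genes tested, drawn between the first and the last percentile. The curve of the mitotic genes lies to the left, with medians of -0.114 and 0.020.

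Without knockout replicate 1, 49 of 52 genes were lower (41.8% of all genes), 23 at an unadjusted p under 0.05 (4.67% of all genes), and the median difference was -0.107 log2. Without wild type replicate 6, the array with the highest levels of these genes, the numbers were 49 (43% of all genes), 23 (5.1%) and -0.0967. The genotypes did not overlap, with every knockout array below every wild type array, in 4 of 52 genes, namely Kif22, Kif11, Kif15 and Nuf2, against 0.73% of all genes, and the reverse held for 0 of 52, against 0.775%. The first count was 12 without knockout replicate 6, against 1.52% of all genes. It was 10 without wild type replicate 5, against 1.3%, and 15 with array medians set equal, against 1.91%.

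The counts of genes lower at an unadjusted p under 0.05 moved by more than 1.5 times in 3 of the 8 roles when knockout replicate 1 or wild type replicate 6 was left out. Chromosome condensation went from 6 of 9 to 3 without knockout replicate 1 and to 3 without wild type replicate 6. The spindle checkpoint went from 3 of 6 to 1 without knockout replicate 1, and cytokinesis from 3 of 7 to 1 without wild type replicate 6. Spindle motors stayed at 8 of 9 and the other mitotic kinases at 3 of 4 with either of these arrays left out. The median of the centromere and kinetochore role was -0.0496 without wild type replicate 6, where the full set of arrays gave -0.0833.

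**Figure D3:**
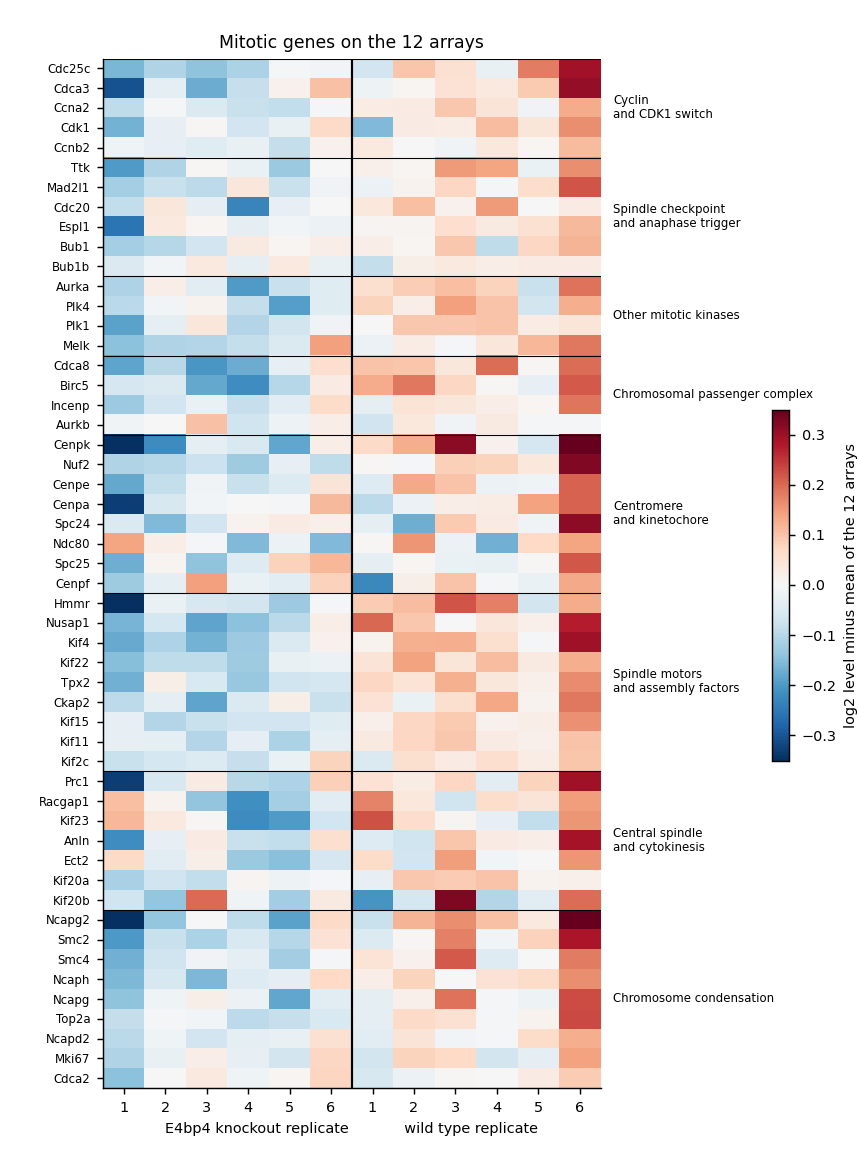
Level of each of the 52 mitotic genes on each of the 12 arrays, as log2 level minus the gene's mean over the arrays (colour, capped at 0.35 in either direction), with genes grouped by role. Knockout columns other than replicate 6 are mostly blue and wild type columns mostly red, with the deepest colours in knockout replicate 1 and wild type replicate 6. The median deviation was 0.0153 on knockout replicate 6 and 0.0041 on wild type replicate 1, so these columns are mixed.

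Of the genes of the cyclin and Cdk1 switch, all 5 measured were lower, 2 of them at an unadjusted p under 0.05, with a median of -0.104 log2. Ccna2, cyclin A2, had knockout levels of 12.54 (lowest), 12.57 (median) and 12.63 (highest) and wild type levels of 12.62, 12.67 and 12.76. The genotypes overlapped by under 0.01 log2, and the difference was -0.10 ± 0.036 log2 (SE, n = 6 per genotype; limma adjusted p 0.235). Cdc25c, the phosphatase that removes inhibitory phosphates from Cdk1, was at 7.77, 7.83 and 7.93 in the knockout, against 7.87, 8.01 and 8.23 in the wild type. Its difference was -0.18 ± 0.061 (limma adjusted p 0.235), and all 6 knockout arrays lay below the wild type mean. Cdk1 itself, the catalytic subunit, was at 11.07, 11.21 and 11.30 against 11.08, 11.27 and 11.40, so the genotypes overlapped over most of their range (-0.071 ± 0.055, limma adjusted p 0.564). Ccnb2, cyclin B2, differed by -0.059 ± 0.034, and Cdca3, a factor that promotes mitotic entry, by -0.16 ± 0.074.

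All 6 genes of the spindle checkpoint and the anaphase trigger were lower, 3 of them at an unadjusted p under 0.05. Ttk (Mps1), the kinase that starts the checkpoint at unattached kinetochores, was at 8.85, 8.98 and 9.05 in the knockout, against 9.03, 9.12 and 9.21 in the wild type. Only the upper end of the knockout met the lower end of the wild type, and the difference was -0.15 ± 0.050 (limma adjusted p 0.227). Mad2l1, the checkpoint protein that holds back Cdc20, was at 11.76, 11.799 and 11.92 against 11.86, 11.91 and 12.10 (-0.11 ± 0.047). Cdc20, the activator of the anaphase-promoting complex, differed by -0.11 ± 0.049, and separase, Espl1, by -0.093 ± 0.049. The checkpoint kinase Bub1 was at -0.074 ± 0.045, and its relative Bub1b (BubR1) at -0.018 ± 0.034, the smallest difference of the group.

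The 4 other mitotic kinases were all lower, 3 at an unadjusted p under 0.05, within a narrow band from -0.146 to -0.114. Aurka, the spindle pole kinase, was at 10.30, 10.43 and 10.52 in the knockout, against 10.42, 10.58 and 10.69 in the wild type, with a difference of -0.15 ± 0.050 (limma adjusted p 0.233). Plk4, which starts centriole duplication, was at 9.90, 10.03 and 10.11 against 10.03, 10.18 and 10.24, with a difference of -0.14 ± 0.047. In both, the knockout median lay near the lowest wild type array. Plk1, which acts from mitotic entry to cytokinesis, differed by -0.12 ± 0.042, and Melk by -0.11 ± 0.055.

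The chromosomal passenger complex, which corrects faulty attachments and later guides cytokinesis, had 3 of 4 genes lower, 2 at an unadjusted p under 0.05. Borealin, Cdca8, was at 9.99, 10.06 and 10.26 in the knockout, against 10.20, 10.30 and 10.39 in the wild type, with a difference of -0.21 ± 0.055 (1.16-fold, limma adjusted p 0.18). Survivin, Birc5, was at 9.58, 9.72 and 9.83 against 9.77, 9.90 and 10.01, a difference of -0.19 ± 0.056 (limma adjusted p 0.2). The scaffold Incenp was at -0.090 ± 0.045. The kinase of the complex, Aurkb, was at 11.78, 11.85 and 11.96 in the knockout, against 11.78, 11.85 and 11.89 in the wild type, with the same lowest value and the same median to 2 decimals. Its difference was 0.0082 ± 0.037, with 3 of 6 knockout arrays below the wild type mean. The sign turned with scaling, to -0.032 with array medians set equal. The log2 ratio of Cdca8 to Aurkb within an array, a pair chosen after its values were seen, was -1.77 ± 0.12 (SD) in the knockout, against -1.55 ± 0.078 in the wild type. The pair holds the lowest and the highest gene of the complex, so this is a description with no test.

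Of 8 centromere and kinetochore genes 7 were lower, 3 at an unadjusted p under 0.05, with a median of -0.0833 and, of the 8 roles, the widest span between genes. Cenpk, a subunit of the inner kinetochore, had the largest difference of the list, -0.28 ± 0.089 (limma adjusted p 0.216), at 8.88, 9.15 and 9.29 in the knockout, against 9.21, 9.37 and 9.66 in the wild type. Nuf2, of the Ndc80 complex that grips microtubules, was at 9.56, 9.59 and 9.65 against 9.68, 9.74 and 10.01. Its genotypes did not overlap, and the difference was -0.17 ± 0.053 (limma adjusted p 0.214). The other subunits of that complex had differences nearer to 0, for Ndc80 -0.059 ± 0.066, Spc24 -0.072 ± 0.070 and Spc25 -0.050 ± 0.061. The centromeric histone Cenpa was at -0.094 ± 0.073 and the kinetochore motor Cenpe at -0.12 ± 0.054. Cenpf, a large kinetochore and nuclear matrix protein, was at 8.94, 9.04 and 9.21 in the knockout, against 8.84, 9.07 and 9.198 in the wild type, 0.0018 ± 0.064 apart, with a sign that turned to -0.0384 with array medians set equal.

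Of the 9 spindle motors and assembly factors all were lower, 8 of them at an unadjusted p under 0.05, the highest share of the 8 roles, with a median of -0.155. Kif22, the chromosome-arm kinesin Kid, was at 10.09, 10.15 and 10.21 in the knockout, against 10.27, 10.31 and 10.38 in the wild type. The 2 genotypes were separate, the difference was -0.17 ± 0.037 (1.12-fold), and its limma adjusted p of 0.155 was the lowest of the list. Kif11 (Eg5), which pushes spindle poles apart, was at 11.73, 11.804 and 11.81 against 11.86, 11.89 and 11.94, a difference of -0.11 ± 0.033. Kif15, a partner motor of Kif11, was at 10.11, 10.14 and 10.18 against 10.22, 10.26 and 10.37, a difference of -0.13 ± 0.035. Kif11 and Kif15 are given in full because their genotypes did not overlap, as seen in the values. The SDs of Kif22, Kif11 and Kif15 were 0.051, 0.039 and 0.026 log2 in the knockout. In the wild type they were 0.049, 0.036 and 0.057. Genes picked for not overlapping have a small spread beside their difference by that choice, so these SDs are a description.

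Tpx2, which activates Aurka on microtubules, was at 10.30, 10.40 and 10.49 in the knockout, against 10.49, 10.53 and 10.64 in the wild type, touching at the edges (-0.155 ± 0.042, limma adjusted p 0.184). Nusap1, a microtubule bundling protein, was at 11.08, 11.14 and 11.28 against 11.26, 11.33 and 11.54, with only the highest knockout array inside the wild type range. Its difference was -0.21 ± 0.056 (limma adjusted p 0.184). Kif4, a chromosome-bound kinesin that works with condensin, differed by -0.20 ± 0.055, Hmmr, a spindle-associated hyaluronan receptor, by -0.22 ± 0.068, and Ckap2 by -0.14 ± 0.046. Kif2c, which depolymerises microtubules at centromeres, was at -0.071 ± 0.039 and was the member of this role that did not reach an unadjusted p under 0.05.

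All 7 genes of the central spindle and cytokinesis were lower, 3 at an unadjusted p under 0.05. Kif20a, the motor that carries the passenger complex to the midzone, was at 10.93, 11.003 and 11.05 in the knockout, against 11.02, 11.10 and 11.14 in the wild type (-0.094 ± 0.038, limma adjusted p 0.287). Prc1, which bundles midzone microtubules, was at 10.05, 10.31 and 10.47 against 10.34, 10.44 and 10.68 (-0.16 ± 0.072). The genotypes overlapped in both. Racgap1, of the centralspindlin complex, was at -0.13 ± 0.059, and its partner Kif23 at -0.11 ± 0.070. The contractile ring protein Anln was at -0.11 ± 0.065 and the RhoA activator Ect2 at -0.096 ± 0.052. Kif20b was at -0.036 ± 0.090, with a wild type spread from 8.53 to 9.06 that covered all knockout arrays.

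All 9 genes of chromosome condensation were lower, 6 at an unadjusted p under 0.05. Ncapg2, a subunit of condensin II, was at 9.54, 9.82 and 9.998 in the knockout, against 9.85, 10.04 and 10.33 in the wild type (-0.25 ± 0.087, limma adjusted p 0.242). Ncaph, the kleisin of condensin I, was at 10.88, 10.99 and 11.11 against 11.04, 11.10 and 11.20 (-0.13 ± 0.046). The core ATPases of both condensins, Smc2 and Smc4, differed by -0.16 ± 0.062 and -0.14 ± 0.053, Ncapg by -0.13 ± 0.058 and Ncapd2 by -0.061 ± 0.040. Top2a, which untangles DNA before segregation, was at 11.30, 11.32 and 11.38 in the knockout, against 11.36, 11.42 and 11.62 in the wild type (-0.11 ± 0.046). Mki67, the surface coat of mitotic chromosomes and the usual marker of dividing cells, was at 12.35, 12.43 and 12.53 against 12.39, 12.48 and 12.60. Its difference of -0.042 ± 0.047 (limma adjusted p 0.703) was within the spread between arrays. Cdca2, a phosphatase adaptor for chromatin after mitosis, was at -0.014 ± 0.042 and its sign turned to 0.00588 after quantile normalisation.

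**Figure D4:**
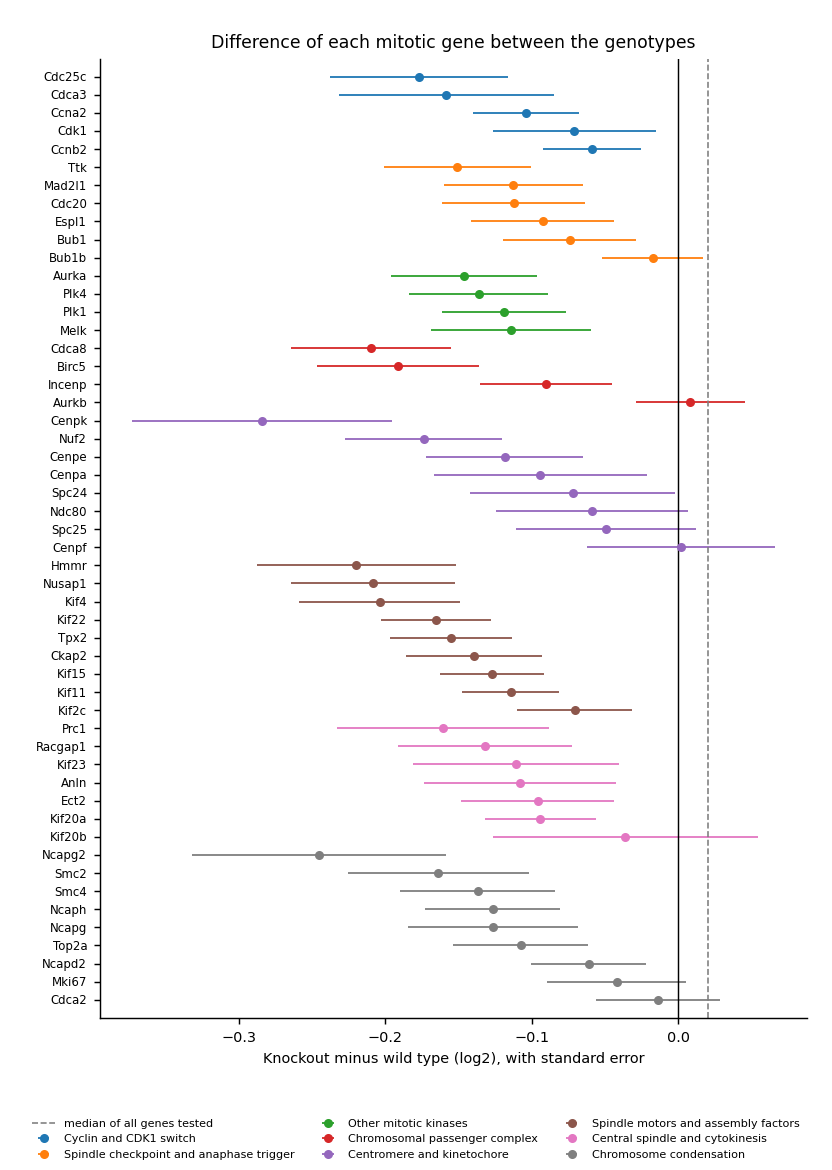
Knockout minus wild type difference of each of the 52 mitotic genes (log2, points) with its limma standard error (bars), coloured by role; the dashed line is the median of all genes tested, 0.020. Points of 50 genes lie left of 0, and Aurkb and Cenpf lie at 0.0082 and 0.0018.

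The array on which a gene was lowest or highest was often the same. Knockout replicate 1 held the lowest value of 29 of the 52 genes, and wild type replicate 6 the highest of 38. Together, knockout arrays held the lowest value for 46 genes and the highest for 3. The same counts were not taken over all genes, so these describe the arrays and are not a trait of mitotic genes. For each array the median over the 52 genes of the deviation from the midpoint of the genotype means was taken. It ran from -0.125 (replicate 1) to 0.0153 (replicate 6) in the knockout and from 0.0041 (replicate 1) to 0.164 (replicate 6) in the wild type. Knockout replicate 6 thus lay above the lowest wild type arrays.

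DNA replication and erythroid lists were, like these genes, lowest on knockout replicate 1 and highest on wild type replicate 6. Megakaryocyte markers were not, with deviations of -0.456 and -0.292 on those arrays. DNA replication genes had 26 of 27 lower, 17 at an unadjusted p under 0.05, with a median difference of -0.128 log2 and array deviations from -0.138 (knockout replicate 1) to 0.111 (wild type replicate 6). Of 14 erythroid markers 13 were lower, 2 at that p, with a median of -0.106 and deviations of -0.306 and 0.198 on the same arrays. Without knockout replicate 1, 11 of 14 were lower and the median was -0.0631. The mean level of that list ran from 11.3 to 11.7 in the knockout, against from 11.57 to 11.87 in the wild type. Of 8 stem and early progenitor markers 8 were higher, 6 at an unadjusted p under 0.05, with a median of 0.147. Among them was the stem cell factor receptor Kit (0.19 ± 0.064, limma adjusted p 0.23), singled out after its value was seen. Of these markers 4 reached that unadjusted p without knockout replicate 1, and 4 without wild type replicate 6. Their mean level ran from 9.21 to 9.50 in the knockout, against from 9.06 to 9.27 in the wild type. All 12 neutrophil markers were higher, by a median of 0.419, with knockout replicate 1 at a deviation of 1.89, and 0 of them reached an unadjusted p under 0.05. Without that array 10 of 12 were higher, 2 at that p, and the median was 0.108. All 8 megakaryocyte markers were higher, by a median of 0.39, 4 at that p, and by 0.487, 8 at that p, without that array. Of 8 B cell precursor markers 6 were higher, 3 at that p, with a median of 0.19. Leaving out knockout replicate 1 gave 5 of 8 higher, 3 at that p, with a median of 0.0982. Of 7 early granulocyte and monocyte progenitor markers 6 were higher, 0 at that p, with a median of 0.0171. Without knockout replicate 1 only 1 of these 7 was higher. T and natural killer cell markers had 5 of 6 tested higher, and stromal and endothelial markers 3 of 7. With knockout replicate 1 left out these were 3 of 6 and 2 of 7. The part of these cell types in the lower mitotic transcripts was not tested.

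**Figure D5:**
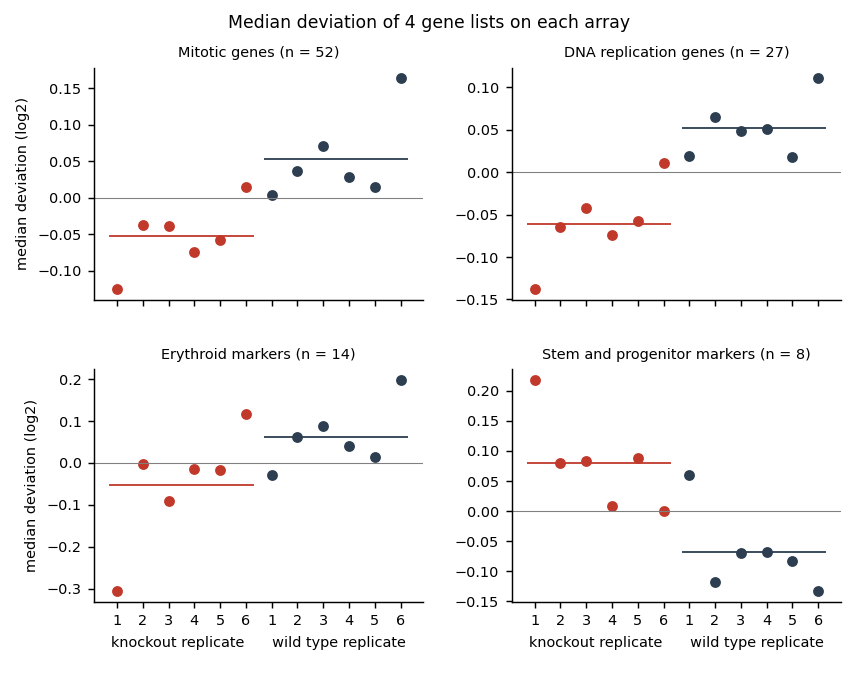
Median deviation (log2) of 4 gene lists on each array, with knockout arrays left (red) and wild type arrays right (dark), and the mean of each genotype as a line. Mitotic, DNA replication and erythroid lists were lowest on knockout replicate 1 and highest on wild type replicate 6, while stem and progenitor markers were highest on knockout replicate 1 and lowest on wild type replicate 6.

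Other genes of mitosis and its regulation were taken from lists set by role, also with earlier results of these data known. They were read against the same background of 5.72%. Of 113 such genes 100 were lower, 42 at an unadjusted p under 0.05, 0 were higher at that p, and the median was -0.0855. Without knockout replicate 1, 95 were lower, 29 at that p, with a median of -0.0633. Of other centromere and kinetochore genes 28 of 28 were lower, 14 at that p, with a median of -0.13. Without knockout replicate 1 these were 26 and 9, with a median of -0.112. Cenpu and Cenph, which like Cenpk belong to the inner kinetochore network, differed by -0.29 ± 0.056 (limma adjusted p 0.14) and -0.31 ± 0.074 (limma adjusted p 0.163). Of 27 spindle pole and centrosome genes 23 were lower, 12 at that p (7 without wild type replicate 6), including the augmin subunit Haus2 (-0.18 ± 0.051) and the centriole protein Cep135 (-0.11 ± 0.034). Both other condensin II subunits were lower, with differences of -0.11 ± 0.037 for Ncapd3 and -0.13 ± 0.062 for Ncaph2.

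Cohesin genes and subunits of the anaphase-promoting complex had smaller medians. Of 14 cohesin genes 13 were lower with a median of -0.060, but only Esco2, the acetyltransferase that locks cohesion in S phase, reached an unadjusted p under 0.05 (-0.20 ± 0.044, limma adjusted p 0.148). Wapl, which releases cohesin, was at -0.11 ± 0.050. Subunits of the anaphase-promoting complex, which is present throughout the cycle, had 11 of 14 lower, 5 at that p, and a median of -0.0453, with Cdc27 at -0.16 ± 0.053 and Anapc5 at -0.095 ± 0.034. A CHR was in 12.5% of their promoters and in 30% of those of the cohesin genes, against 19.2% of all promoters. For partners of the anaphase-promoting complex the share was 60% of 5 promoters, with a median difference of -0.0462. It was 23.1% for DNA replication genes, with a median of -0.128. For the other centromere and kinetochore genes it was 48%, with a median of -0.13. A link between the CHR and these differences was not tested. Among 5 partners of that complex, the inhibitor Fbxo5 (Emi1) was at -0.18 ± 0.079 and securin, Pttg1, at -0.046 ± 0.054.

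Of 23 genes listed as MuvB, E2F and NF-Y regulators of mitotic genes, 19 were lower, 8 at an unadjusted p under 0.05, with a median of -0.0667. Their binding to these promoters was not measured. The count at that p was 4 without knockout replicate 1 and 4 without wild type replicate 6. Mybl2 (B-Myb), which joins MuvB in S phase, was at 10.30 in the knockout, against 10.44 in the wild type (-0.14 ± 0.041, limma adjusted p 0.209), and E2f2 at 9.55 and 9.90 (-0.35 ± 0.12, limma adjusted p 0.238). Foxm1, the activator of the late mitotic genes, differed by -0.0081 ± 0.046 (limma adjusted p 0.951). The MuvB subunits Lin9, Lin37, Lin52 and Lin54 were at -0.14 ± 0.057, 0.037 ± 0.050, -0.017 ± 0.048 and 0.0055 ± 0.034. The NF-Y subunits Nfya, Nfyb and Nfyc were at 0.047 ± 0.045, -0.098 ± 0.056 and -0.067 ± 0.038. Foxm1, these MuvB subunits and the NF-Y subunits were singled out after their values were seen.

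The differences of the 52 genes were also set beside their promoters. The 34 genes with a CHR had a median difference of -0.112 log2, with 33 lower and 17 at an unadjusted p under 0.05. The 9 genes with a promoter but no CHR had a median of -0.136, with 9 lower and 8 at that p, among them Nusap1, Birc5, Nuf2 and Cenpk. The 9 genes with no promoter in the table had a median of -0.0943. Differences ran from -0.245 to 0.0018 with a CHR and from -0.284 to -0.113 without one. Without knockout replicate 1 the counts at that p were 14 of 34, 6 of 9 and, for genes with no promoter in the table, 3 of 9. The difference between these sets was not tested.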

How the data were processed

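Values are the log2 levels the authors deposited, made with GeneSpring GX version 11 and RMA16 per the series design text; the log2 scale was inferred from their range, 3.18 to 14.33. The build and probe annotation behind them are not given in the sources used here. RMA brings arrays toward a common distribution, which can hide a shift of most genes in 1 direction. Platform annotation named 1 gene for 21640 of 34760 rows. Rows reaching the 20th percentile of their array on at least 1 array were kept (29541), as the design text states.

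Knockout minus wild type was fitted with limma 3.58.1 in R 4.3.3 (lmFit, eBayes, no covariate), with Benjamini-Hochberg adjustment over all kept rows. SE is limma's, and SD is over the 6 arrays per genotype. Role and list counts without 1 array were added after the data were seen. The fit was run on simulated data to check the code, with independent noise and larger shifts than most of these genes had. That run does not bear on whether differences of the size seen here could be detected. The genes and lists were chosen with earlier results of these data known. Full values were given for the 2 genes of lowest p per role, and for Nusap1, Cdk1, Mki67, Top2a and Birc5 (and Ccnb1, had it a row). Genes higher in the knockout, and those whose genotypes did not overlap (added after values were seen), were also given in full. From other lists of mitotic genes and their regulators, differences were given for the 2 genes of lowest p. Promoters were matched by symbol to RefSeq (GRCm38.p6); coordinates belong to that build only.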

Additional observations from a re-analysis of the deposited data

Results flagged for a closer look

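An array is named here for a gene when it lay apart from the other 5 of its genotype by more than Dixon's 95% critical value. This held for 11 of 108 sets of 6 arrays, and chance alone gives about 1 in 20, or 5.4. Wild type replicate 6 was the high array in 5 of them, with Cdca3 at 10.87 (others at most 10.65), Incenp at 10.69 (10.55), Nuf2 at 10.01 (9.76), Spc25 at 8.96 (8.75) and Prc1 at 10.68 (10.46). Knockout replicate 1 was low in Espl1, at 9.39 against at least 9.62, and in Hmmr, at 9.60 against at least 9.86. Knockout replicate 6 was high in Melk, at 8.84 against at most 8.64, and in Kif2c, at 9.87 against at most 9.77. Wild type replicate 1 was low in Bub1b, at 10.28 against at least 10.38, and high in Nfil3, at 7.67 against at most 7.18.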

How the results depend on the processing

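Under 21 alternatives 0 of the 52 genes passed the adjusted threshold in limma, the lowest value being 0.0805 after array median centring. The count lower stayed between 49 and 52, the count lower at an unadjusted p under 0.05 ran from 23 to 32 when 1 array was left out and from 21 to 41 otherwise, and 0 were higher at that p throughout. The median difference ran from -0.129 to -0.0967 when 1 array was left out and from -0.155 (array median centring) to -0.0932 (quantile normalisation) otherwise. Non-overlapping genes numbered 4 to 12 when 1 array was left out and 15 after array median centring. Counts of other mitotic genes lower at that p ran from 29 to 44 when 1 array was left out and from 32 to 63 otherwise. The cause of these movements was not tested.

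Of 1092 values of single genes 15 turned sign, in Aurkb, Cdca2, Cenpf and Kif20b. Leaving out 1 array gave -0.0114 to 0.0231 for Aurkb, -0.0308 to 0.0133 for Cdca2, -0.0433 to 0.0286 for Cenpf and -0.0813 to 0.0254 for Kif20b. Array median centring gave -0.032 for Aurkb and -0.0384 for Cenpf, and quantile normalisation 0.00588 for Cdca2. With both replicates 1 left out (chosen after seeing the data) they were -0.00149 for Aurkb, 0.000865 for Cdca2 and -0.0185 for Cenpf.

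Replicate numbers are shared by the genotypes, and the labels do not say whether equal numbers are pairs. Residuals of same-numbered arrays correlated from -0.0327 to 0.462, and 3 of 6 knockout arrays correlated best with their own number. The median deviation of the mitotic genes was lowest on replicate 1 and highest on replicate 6 in both genotypes. It was -0.125 and 0.0153 in the knockout, and 0.0041 and 0.164 in the wild type. These values do not settle whether the numbers are pairs, and the main fit did not use them. With the replicate number as a block, 34 genes were lower at an unadjusted p under 0.05, 0 passed the adjusted threshold and the median difference was -0.114.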

Other observations

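NF-Y boxes were often doubled in these promoters. Of 48 promoters 21 (43.8%) held 2 or more, against 11.7% of all promoters. Neighbouring boxes lay 31 to 35 bases apart, first base to first base, in 8 of 48 (16.7%), against 1.29% of all promoters; that range was chosen after the positions were seen. The spacing occurred in 12% of the promoters of the other centromere and kinetochore genes (3 of 25) and in 0 of 26 promoters of DNA replication genes, although 57.7% of the latter held an NF-Y box.

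The 6 genes nearest to 0 were Aurkb, Cenpf, Cdca2, Bub1b, Kif20b and Mki67, named after their values were seen. They lay between -0.042 and 0.0082 log2.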
